A study of Mus musculus with 8 samples.

Results

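Heat shock proteins and DnaJ proteins were followed in newborn mouse epidermis with and without Zfp750, a zinc finger transcription regulator active in differentiating keratinocytes. The members were all genes in the deposited expression table whose symbol starts with Dnaja, Dnajb, Dnajc or Hsp. Hspg2, a basement membrane proteoglycan, and Hspbap1, an Hspb1-associated protein, share the letters but not the family and were left out. This gave 67 of the 15995 genes listed, made up of 41 DnaJ genes (4 Dnaja, 11 Dnajb and 26 Dnajc) and 26 Hsp genes (13 Hspa, 6 Hspb, 3 Hsp90 genes, Hspd1, Hspe1, Hsph1 and Hspbp1).

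RNA from the epidermis of C57BL/6J pups was sequenced in 4 Zfp750 knockout samples, labelled ZFP750-/-, and 4 wild-type samples. By the protocol given, skin of both genotypes had lain overnight in cold trypsin-EDTA before the epidermis was peeled off and snap-frozen. Whether handling was equal across the libraries was not tested. Which part of Zfp750 was removed, how this was done and whether any pups were littermates is not stated in the labels. The labels also do not say whether samples came from separate animals, so p-values measure the spread between these samples. Sample titles carry a code whose meaning is not given in the labels. Code 11 marks knockout 1 and wild type 4, code 14 marks knockout 2 and wild type 3, and code 44 marks knockouts 3 and 4 and wild types 1 and 2.

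Heat shock proteins bind unfolded stretches of other proteins and help them fold, refold or be handed on for degradation. Hsp70 proteins, encoded by the Hspa genes, cycle between an ATP and an ADP form. DnaJ proteins (Hsp40) deliver clients and stimulate the ATPase, while nucleotide exchange factors release the ADP. Hsp90 proteins act later, on nearly folded clients. Small heat shock proteins (Hspb) hold clients without ATP, and Hspd1 with Hspe1 forms the folding chamber of mitochondria. The heat shock factor Hsf1 induces many of the cytosolic members. The unfolded protein response induces many of those of the endoplasmic reticulum (ER), the compartment where secreted and membrane proteins fold. In skin the small heat shock protein Hspb1 is abundant in differentiating keratinocytes.

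Zfp750 itself stood at 1.53 to 2.68 FPKM (fragments scaled to transcript length and to the mapped total, so that levels can be compared between genes) in the knockouts and at 81.6 to 119 FPKM in the wild types. At least 1 FPKM was reached by 10637 to 11368 genes in the knockout libraries and by 10745 to 11599 in the wild types. The absolute depth is unknown. The 10 keratinocyte markers examined summed to 18470 to 20750 FPKM in the knockouts and 16140 to 18940 FPKM in the wild types. All 10 passed the minimum for testing, and 3 of them (Dsg3, Ivl and Krt14) were higher in the knockouts. Xist, a transcript of female cells, had 126, 84.6, 150.4 and 1.84 FPKM in knockouts 1 to 4 and 0.0223, 0.0087, 118 and 0.0082 FPKM in wild types 1 to 4, so it was uneven between and within the genotypes. Of 7 myeloid markers, 6 were lower in the knockouts and none higher, with sums of 5.85 to 12.4 FPKM in the knockouts and 49.5 to 75.5 FPKM in the wild types. In bulk samples, fewer cells of a type and less RNA per cell cannot be told apart. Of 4 tested Langerhans cell markers 1 was lower, as was 1 of 2 tested T cell markers, and no erythroid marker of 3 tested passed. Endothelial markers summed to at most 0.415 FPKM in the knockouts and at most 0.589 FPKM in the wild types. The part of other cell types in the values below was not tested.

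Promoter sequences carry the letters that the ER and heat shock pathways are known to read, so a few are shown before the values. They are from RefSeq (GRCm38.p6), where 54 of the 67 members had at least 1 window of 250 bases before to 50 bases after a start site. Dnajc2, Dnajc5, Dnajc11, Dnajc12, Dnajc18, Dnajc22, Dnajc30, Hsp90aa1, Hsp90ab1, Hspa8, Hspa9, Hspa13 and Hspb2 had none in the table used. The ER stress element, searched as CCAAT, 9 bases of any kind and CCACG on both strands, was found in 39 of all 32851 windows (0.119%). Of the 54 members with a window, 3 held it (5.56%, against 0.137% of all 27025 genes with one): Hspa5, Hsp90b1 and Dnajc3. Its first letters are those of the CCAAT box, so every match also counts as one.

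The ER stress elements stand in capitals in the 3 sequences that follow, written 5′ to 3′ on the strand of the gene. Hspa5 is shown from 71 to 42 bases before its start site (chr2:34772019-34772048, plus strand), Hsp90b1 from 250 to 66 bases before (chr10:86705510-86705694, minus strand) and Dnajc3 from 250 to 1 base before (chr14:118937682-118937931, plus strand). Hsp90b1 holds 2 matches, the second on the opposite strand. The Hspa5 stretch lies before the RefSeq start site but within the Hspa5 gene as annotated in GENCODE M21.
Hspa5: acttcaCCAATCGGAGGCCTCCACGacggg
Hsp90b1: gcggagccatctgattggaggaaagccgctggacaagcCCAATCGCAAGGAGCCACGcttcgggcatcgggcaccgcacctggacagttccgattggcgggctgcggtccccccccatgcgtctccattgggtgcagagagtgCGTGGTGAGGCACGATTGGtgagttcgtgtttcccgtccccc
Dnajc3: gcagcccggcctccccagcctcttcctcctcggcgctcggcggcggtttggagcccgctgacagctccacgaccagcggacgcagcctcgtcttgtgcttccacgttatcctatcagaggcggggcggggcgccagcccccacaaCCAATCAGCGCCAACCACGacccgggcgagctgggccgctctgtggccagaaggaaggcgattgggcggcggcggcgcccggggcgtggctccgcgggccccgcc

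The heat shock element was searched as GAANNTTC or TTCNNGAA, on both strands. It was found in 14 of the 54 members with a window (25.9%) and in 17% of all genes with one. The longer forms with 3 units, GAANNTTC with NNGAA after it or TTCNNGAA with NNTTC after it, overlap the short ones and were found in 4 members (Dnajb6, Hspd1, Hspe1 and Hsph1, 7.41%) and in 0.662% of all genes with a window. The capitals in the next 3 sequences, each of 30 bases, mark these elements in the gene with the largest rise among the members (Dnaja1, chr4:40722333-40722362, plus strand), in the stretch upstream of Hspe1 (chr1:55088053-55088082, plus strand) and in the classical heat-inducible Hsp70 gene (Hspa1a, chr17:34972242-34972271, minus strand). In Hspe1, 2 elements of 3 units overlap. The Hspe1 stretch also lies in a RefSeq promoter window of Hspd1 and within the Hspd1 gene as annotated in GENCODE M21. The Dnaja1 stretch likewise lies within the Dnaja1 gene as annotated there. It comes from 1 RefSeq window of Dnaja1, and other windows of that gene held CCAAT boxes but no heat shock element. A match says only that these letters occur there.
Dnaja1: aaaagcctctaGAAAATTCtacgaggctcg
Hspe1: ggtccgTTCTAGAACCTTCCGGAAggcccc
Hspa1a: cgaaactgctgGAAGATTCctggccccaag

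Genes were tested where they reached 1 FPKM in at least 4 of the 8 libraries, whatever the genotype, and 60 of the 67 members did. The other 7 stayed low: Dnajb7, Dnajc22, Hspa1l, Hspa12b and Hspb2 were below 1 FPKM in every library. Dnajc27 ranged from 0.754 to 1.08 FPKM in the knockouts and from 0.613 to 1.15 FPKM in the wild types. Hspb9 had no value in knockout 4 and wild type 4 and at most 1.26 FPKM elsewhere.

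Among the 60 tested members, 9 were higher and 5 lower in the knockouts, and 46 did not pass (limma on log2(FPKM + 1), Benjamini-Hochberg adjusted p under 0.05 over all genes tested). Over all 11395 genes tested, 15.7% passed in either direction, 6.72% as higher and 8.94% as lower. Among the members these shares were 23.3%, 15% and 8.33%. The median log2 change was 0.03 over the tested members and 0.01 over all genes tested. The median member thus moved about as little as the median gene. The libraries of the genotypes did not overlap for 17 members (28.3%), 11 with the knockouts higher and 6 lower. Over all genes tested 21.3% did not overlap, 8.78% with the knockouts higher and 12.5% lower. All 14 members that passed were among these 17, and the others were Hspd1, Hsph1 and Dnajc16. Leaving out wild type 1 left 7 calls (5 higher, 2 lower), leaving out knockout 2, knockout 3 or wild type 2 left 9 each, and the other 4 fits without a library gave 10 to 15. With Xist as a covariate 9 members passed, and Dnaja4, Dnajc5, Hspa4, Hspa12a and Hspb8 were lost. Within title code 44 alone 8 members passed (10.4% of all genes tested did), and Dnaja4, Dnajb9, Dnajb11, Dnajb14, Dnajc5 and Hspa4 were lost. Within codes 11 and 14 alone 10 passed (14.7% of all genes tested did). There Dnajb11, Dnajc5, Hsp90ab1, Hsp90b1, Hspa4 and Hspb8 were lost, and Dnajb5 and Dnajc25 passed as lower.

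**Figure D1:**
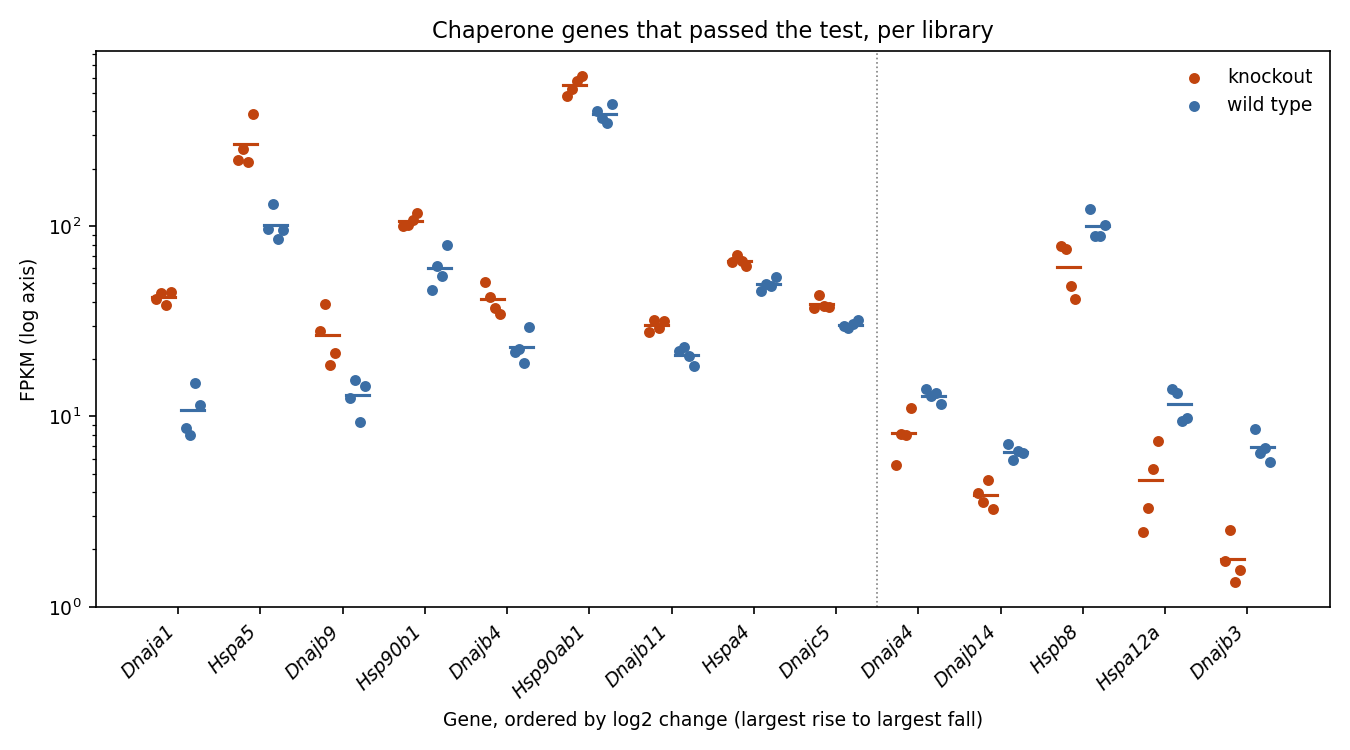
FPKM (log axis) of the 14 chaperone genes that passed the test, with a point for each library, knockouts in orange to the left of wild types in blue, and a line at each mean of 4. The 9 genes left of the dotted line were higher and the 5 right of it lower in the knockouts, with no overlap between genotypes. Dnaja1 is at the far left, with 38.5 to 45.03 FPKM in the knockouts and 8.03 to 14.99 FPKM in the wild types.

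Among the type I DnaJ genes, cochaperones of the cytosol and mitochondria, Dnaja1 rose and Dnaja4 fell. Dnaja1, a farnesylated cytosolic partner of Hsp70, measured 41.2, 44.6, 38.5 and 45.03 FPKM across knockouts 1 to 4, against 8.70, 8.03, 14.99 and 11.5 FPKM across wild types 1 to 4. Every knockout was far above every wild type. Its mean was 42.3 ± 3.06 FPKM in the knockouts and 10.8 ± 3.17 FPKM in the wild types (SD, n = 4 each), a 3.92-fold ratio and a rise of 1.91 ± 0.18 on the log2 scale (SE; limma adjusted p = 1.37e-04). The log2 change was 2.19 within code 44 and 1.63 within codes 11 and 14. The gene lies on chromosome 4 from 40722150 to 40737149, plus strand (GRCm38, GENCODE M21). Of all its stretches of 75 bases, the read length, 18.4% also occur in transcripts of another gene, chiefly pseudogenes. Its exons overlap those of Smu1 on the other strand, and Smu1 had a mean of 28.95 FPKM in the knockouts and 25.4 FPKM in the wild types (log2 change 0.18, limma adjusted p = 0.344).

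Dnaja4, a cytosolic relative, had 5.54, 8.05, 8.02 and 11.01 FPKM across knockouts 1 to 4, against 13.9, 12.8, 13.3 and 11.6 FPKM across wild types 1 to 4. Knockout 4 came close to wild type 4. The log2 change was -0.63 ± 0.18 (SE; limma adjusted p = 0.0425), and the call was kept in only 1 of 8 fits that left out a library, the fit without knockout 4 (highest adjusted p = 0.115). Of its stretches of 75 bases, 42% also occur in Wdr61 on the other strand, and use of strand in counting is not stated. Dnaja2, the most abundant type I gene, had 68.9, 75.9, 72.5 and 70.2 FPKM across knockouts 1 to 4, against 75.6, 71.9, 62.5 and 65.7 FPKM across wild types 1 to 4, so the genotypes overlapped (limma adjusted p = 0.731). Mitochondrial Dnaja3 had means of 17.2 and 16.3 FPKM in knockout and wild type (limma adjusted p = 0.856). The level of Dnaja1 was thus about that of Dnaja4 in wild type and several times higher in the knockouts, while Dnaja2 led in both.

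The chaperones of the ER lumen included several of the rises. Hspa5, the ER Hsp70 known as BiP, measured 222, 254, 217 and 388 FPKM across knockouts 1 to 4, against 96.1, 129.8, 85.0 and 95.6 FPKM across wild types 1 to 4. The lowest knockout was well above the highest wild type, and knockout 4 was the highest library. The means were 270.2 ± 80.0 and 101.7 ± 19.5 FPKM in knockout and wild type (SD, n = 4 each), a 2.66-fold ratio and a rise of 1.38 ± 0.20 on the log2 scale (SE; limma adjusted p = 0.00186). The change was 1.37 within code 44 and 1.39 within codes 11 and 14. Hspa5 lies on chromosome 2 from 34771970 to 34777547, plus strand, and carries the ER stress element shown above.

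Hsp90b1, the ER Hsp90 known as Grp94, had 99.9995, 101.1, 107.6 and 116.8 FPKM across knockouts 1 to 4, against 46.0, 61.4, 54.7 and 79.9 FPKM across wild types 1 to 4. The knockouts lay close together, and wild type 4 was nearest to them. The gene rose by 0.83 ± 0.16 on the log2 scale (SE; limma adjusted p = 0.0076), with 1.06 within code 44 and 0.60 within codes 11 and 14. Hsp90b1 lies on chromosome 10 from 86690209 to 86705509, minus strand. A noncoding gene overlaps it on the other strand, with a mean of 1.45 FPKM in the knockouts and 1.56 FPKM in the wild types (1810014B01Rik).

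The ER DnaJ genes Dnajb9 (ERdj4) and Dnajb11 (ERdj3), which bring clients to BiP, rose as well. Dnajb9 measured 28.2, 38.8, 18.7 and 21.4 FPKM across knockouts 1 to 4, against 12.5, 15.6, 9.38 and 14.5 FPKM across wild types 1 to 4. Knockouts 1 and 2 were the highest libraries, and knockout 3 came nearest to the wild types. The log2 change was 0.96 ± 0.23 (SE; limma adjusted p = 0.023), with 0.49 within code 44 and 1.43 within codes 11 and 14. The difference between the codes did not pass (interaction, limma adjusted p = 0.26), and the call was lost without knockout 1, wild type 1 or wild type 3 (highest adjusted p = 0.0627). Dnajb11 had 27.9, 31.9, 29.0 and 31.7 FPKM across knockouts 1 to 4, against 22.1, 23.2, 20.8 and 18.3 FPKM across wild types 1 to 4, a narrow range in each genotype. Its log2 change was 0.50 ± 0.11 (SE; limma adjusted p = 0.0157), lost without knockout 2 (adjusted p = 0.0528).

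The other luminal members did not pass. Dnajc3 (p58IPK), which like Hspa5 and Hsp90b1 carries the ER stress element, had 14.6 to 16.5 FPKM in the knockouts and 15.1 to 16.0 FPKM in the wild types, a narrow range in both genotypes. The disulfide reductase Dnajc10 had 5.84 to 9.47 FPKM in the knockouts and 5.16 to 10.2 FPKM in the wild types. Dnajc1 and Hspa13 had log2 changes of -0.07 and 0.03. In all, of the 8 members counted here as luminal, 4 rose and 4 did not pass, while 6.72% of all genes tested were higher. The grouping was drawn up after the values were seen, and the count depends on which members are taken as luminal. With code 44 alone, or with codes 11 and 14 alone, 2 of the 8 passed. Their summed level was 414, 464, 413 and 593 FPKM across knockouts 1 to 4, against 209.8, 265, 209.7 and 248 FPKM across wild types 1 to 4. Hspa5 was the highest of the 8 in every library.

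Other genes of ER protein folding that are no members also moved. The counts below can be set against all genes tested, of which 6.72% were higher and 8.94% lower. In the list of ER folding and unfolded protein response genes, 5 of 24 tested rose, 2 fell and 17 did not pass, with a median log2 change of 0.16. Those that rose were Manf (0.80 ± 0.11, limma adjusted p = 0.00132), Pdia6 (0.65 ± 0.14), Pdia4 (0.65 ± 0.16), the oxidase Ero1l (0.70 ± 0.18) and Creld2 (0.71 ± 0.21), each at a limma adjusted p of 0.0465 or below. Manf, an ER-resident secreted factor, measured 22.1, 22.3, 22.6 and 25.9 FPKM across knockouts 1 to 4, against 11.6, 13.1, 13.8 and 13.2 FPKM across wild types 1 to 4, with no overlap. Herpud1, a membrane protein of ER-associated degradation, fell by 0.92 ± 0.19, and the pseudokinase Trib3 fell by 0.62 ± 0.17 (log2, SE; limma adjusted p = 0.0113 and 0.0355). Herpud1 had 26.3 to 29.8 FPKM in the knockouts and 34.9 to 66.3 FPKM in the wild types. The calreticulin gene Calr (0.37 ± 0.12, limma adjusted p = 0.0665) and the regulators Atf4 (0.51), Xbp1 (0.14), Ddit3 (0.13) and Atf6 (0.02) did not pass. Changes in the other direction that did not pass included Eif2ak3 (-0.40), Edem1 (-0.35), Sel1l (-0.24) and P4hb (-0.11). Of the 10 exchange factors and ER or mitochondrial partners, 3 rose and none fell. They were Hyou1, the exchange factor of BiP (0.85 ± 0.14, limma adjusted p = 0.00349), the BiP cofactor Sdf2l1 (0.69 ± 0.20) and Grpel2 (0.79 ± 0.23), a mitochondrial exchange factor. Hyou1 had 29.4 to 39.9 FPKM in the knockouts and 14.4 to 19.6 FPKM in the wild types.

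**Figure D2:**
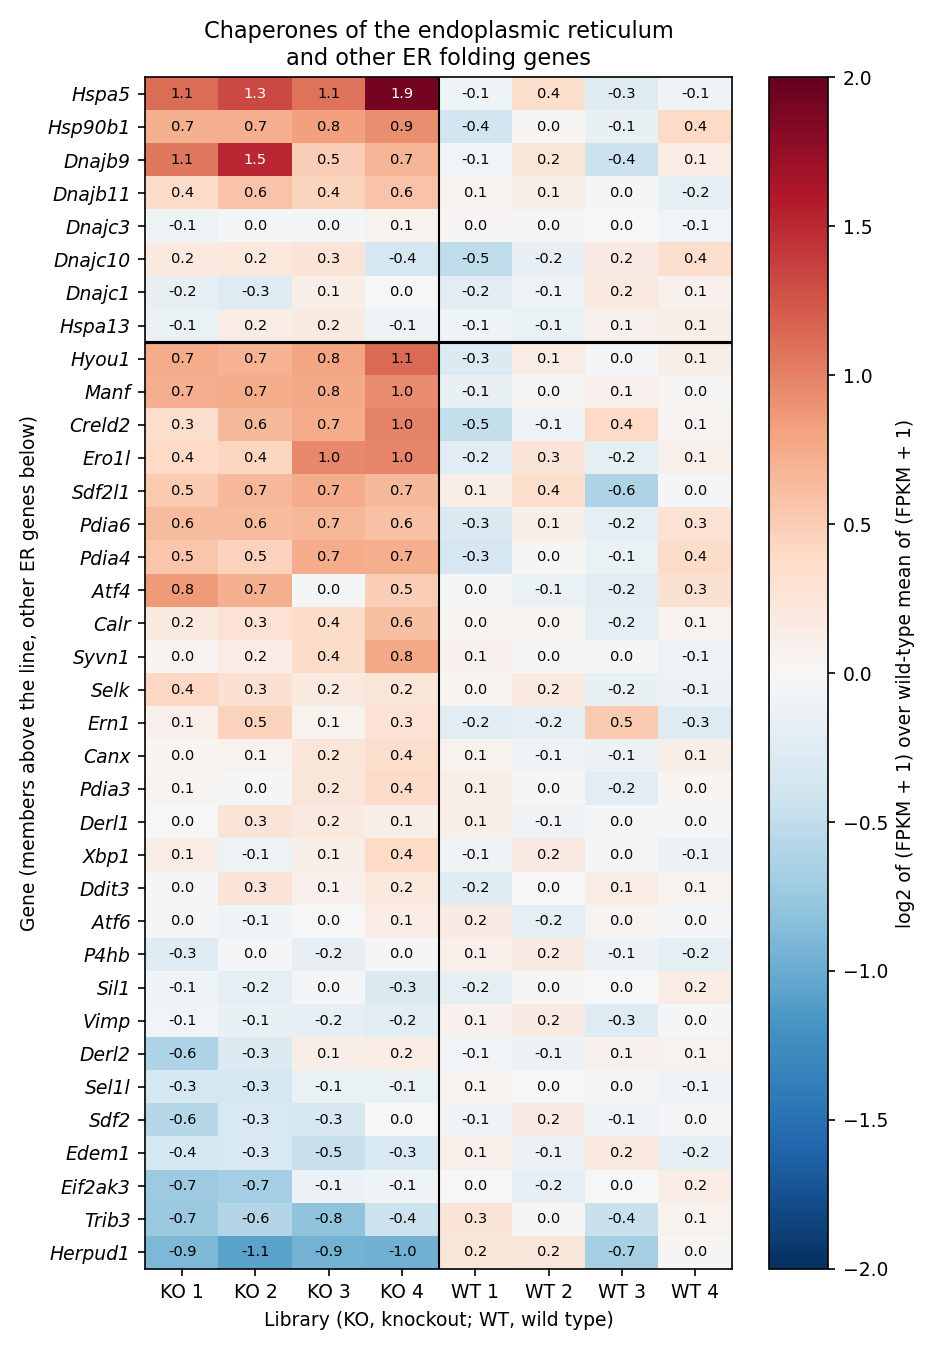
Each cell gives log2 of (FPKM + 1) over the wild-type mean of (FPKM + 1), with knockouts (KO) in the left columns and wild types (WT) in the right, for the 8 luminal chaperone members above the line and other tested ER genes below it in order of log2 change. Hspa5, Hsp90b1, Dnajb9 and Dnajb11 are red in every knockout, together with Hyou1, Manf and others, while Herpud1 and Trib3 at the bottom are blue in every knockout, and Dnajc3 stays near 0 throughout.

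In the cytosolic Hsp90 pair, the constitutive gene Hsp90ab1 rose. It had 485, 524, 581 and 614 FPKM across knockouts 1 to 4, against 402, 371, 347 and 439 FPKM across wild types 1 to 4. Every knockout was above every wild type, the nearest being knockout 1 and wild type 4. The gene rose by 0.50 ± 0.13 on the log2 scale (SE; limma adjusted p = 0.0257), and the call was kept in 4 of 8 fits that left out a library. It was lost on leaving out either knockout 2 or 3, or either wild type 1 or 2 (highest adjusted p = 0.0784). The stress-inducible Hsp90aa1 measured 79.0, 80.3, 57.6 and 30.2 FPKM across knockouts 1 to 4, against 34.3, 40.3, 50.2 and 70.0 FPKM across wild types 1 to 4, so the genotypes overlapped widely (log2 change 0.29, limma adjusted p = 0.605). Of its stretches of 75 bases, 42.8% also occur in other genes, chiefly pseudogenes.

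Of the 11 tested Hsp70 genes, Hspa5 and Hspa4 rose, Hspa12a fell and 8 did not pass, while 15.7% of all genes tested passed. Hspa4, an exchange factor of the Hsp110 branch, had 64.8, 70.5, 65.2 and 61.5 FPKM across knockouts 1 to 4, against 45.3, 49.7, 48.6 and 54.3 FPKM across wild types 1 to 4. Knockouts and wild types were each tightly grouped, and the change was small, 0.40 ± 0.10 on the log2 scale (SE; limma adjusted p = 0.0248). The call was lost without knockout 1, 2 or 3 or wild type 1 or 2 (highest adjusted p = 0.0833). Hspa12a, a distant Hsp70 relative, measured 2.47, 3.29, 5.31 and 7.47 FPKM across knockouts 1 to 4, against 13.9, 13.2, 9.48 and 9.77 FPKM across wild types 1 to 4. In both genotypes the code 44 libraries were the higher ones. The log2 change was -1.23 ± 0.27 (SE; limma adjusted p = 0.0149), and it missed the threshold without wild type 1 (adjusted p = 0.0506).

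The Hsp70 genes of the cytosol best known for constitutive and heat-induced supply did not pass. Hspa8, the constitutive gene, had 348, 304, 187 and 165 FPKM across knockouts 1 to 4, against 154, 150.01, 323 and 230 FPKM across wild types 1 to 4. The 4 libraries of code 44 were the 4 lowest, whatever the genotype (knockout against wild type 0.23 ± 0.31 on the log2 scale, limma adjusted p = 0.675). Among the Hspa8 stretches of 75 bases, 33.05% also occur in other genes. The heat-inducible Hspa1b had 30.7 to 43.0 FPKM in the knockouts and 23.2 to 46.1 FPKM in the wild types. Hspa1a had 10.6 to 42.4 FPKM in the knockouts and 12.2 to 27.5 FPKM in the wild types. Hspa1a and Hspa1b are near-identical neighbours on chromosome 17, with 61.7% and 55.8% of their stretches of 75 bases shared with other genes, so their single values are uncertain. Mitochondrial Hspa9 had means of 97.3 and 89.7 FPKM in knockout and wild type (limma adjusted p = 0.601). Of the remaining exchange factors, Hsph1 (Hsp105) measured 4.81, 5.22, 7.36 and 8.95 FPKM across knockouts 1 to 4, against 2.05, 4.31, 3.45 and 4.23 FPKM across wild types 1 to 4. Its groups did not overlap, but it missed the threshold (log2 change 0.75 ± 0.24, SE; limma adjusted p = 0.0611). Hspbp1 had 17.3, 20.1, 18.1 and 19.4 FPKM across knockouts 1 to 4, against 14.6, 17.4, 15.6 and 14.3 FPKM across wild types 1 to 4. Its groups overlapped by wild type 2 alone (log2 change 0.26 ± 0.11, limma adjusted p = 0.155).

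**Figure D3:**
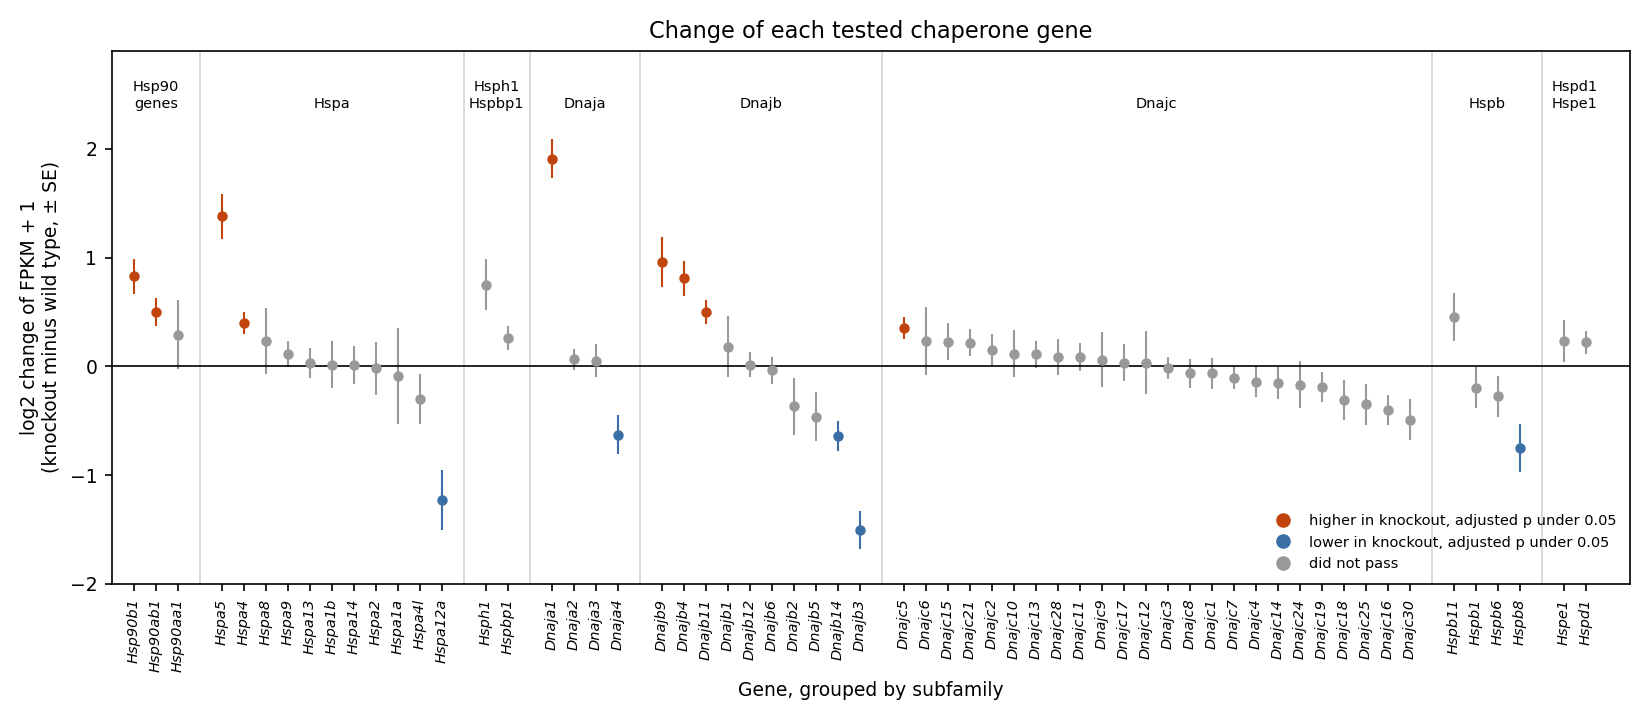
Log2 change of FPKM + 1 (knockout minus wild type) with its standard error for each of the 60 tested chaperone genes, grouped by subfamily and ordered by change within it. Orange marks the 9 higher and blue the 5 lower genes at an adjusted p under 0.05, and grey the 46 that did not pass. The 24 Dnajc genes lie between -0.49 and 0.35, with a single call.

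The 10 tested Dnajb genes moved in both directions, with 3 higher, 2 lower and 5 that did not pass. For comparison, 6.72% of all genes tested were higher and 8.94% lower. Beside the ER genes Dnajb9 and Dnajb11, the cytosolic Dnajb4 rose. It had 50.6, 42.6, 37.0 and 34.6 FPKM across knockouts 1 to 4, against 21.7, 22.6, 19.0 and 29.4 FPKM across wild types 1 to 4, with wild type 4 nearest to the knockouts. The gene rose by 0.81 ± 0.16 on the log2 scale (SE; limma adjusted p = 0.00958), and it held in all 8 fits that left out a library (highest adjusted p = 0.033). Its close relative Dnajb1, the classical heat-induced Hsp40, measured 136, 109, 83.0 and 78.6 FPKM across knockouts 1 to 4, against 105, 121, 49.3 and 92.8 FPKM across wild types 1 to 4. Its groups overlapped, and the log2 change was 0.18 ± 0.28 (SE; limma adjusted p = 0.723).

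Dnajb3 fell the most of all tested members. It is an intronless gene known from mouse sperm cells, on chromosome 1 from 88204732 to 88205782, minus strand. It had 1.74, 2.52, 1.35 and 1.56 FPKM across knockouts 1 to 4, against 8.57, 6.44, 6.79 and 5.73 FPKM across wild types 1 to 4. The lowest wild type was more than double the highest knockout. The log2 change was -1.50 ± 0.18 (SE; limma adjusted p = 4.74e-04), with -1.78 within code 44 and -1.22 within codes 11 and 14. Dnajb14, anchored in the ER membrane with its J domain in the cytosol, measured 3.95, 3.54, 4.65 and 3.28 FPKM across knockouts 1 to 4, against 7.17, 5.89, 6.58 and 6.45 FPKM across wild types 1 to 4. The groups were apart, and the log2 change was -0.64 ± 0.14 (SE; limma adjusted p = 0.0132). Dnajb12, its ER membrane relative, had means of 21.8 and 21.6 FPKM in knockout and wild type (limma adjusted p = 0.948).

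The Dnajc genes, the largest and most mixed subfamily, gave a single call. Of 24 tested, 1 rose, none fell and 23 did not pass at an adjusted p under 0.05, with a median log2 change of 0.01. For comparison, 6.72% of all genes tested were higher and 8.94% lower. Dnajc5, the cysteine string protein of secretory vesicles, had 37.0, 43.7, 38.2 and 37.7 FPKM across knockouts 1 to 4, against 30.02, 29.0, 30.6 and 32.0 FPKM across wild types 1 to 4. The gene rose by 0.35 ± 0.10 on the log2 scale (SE; limma adjusted p = 0.0402), and the call was kept only without knockout 4 among the 8 fits that left out a library (highest adjusted p = 0.121). Dnajc16 measured 3.96, 3.69, 4.96 and 5.24 FPKM across knockouts 1 to 4, against 6.35, 6.03, 6.06 and 6.17 FPKM across wild types 1 to 4. The wild types were nearly equal and above every knockout, but the gene missed the threshold (-0.40 ± 0.14, limma adjusted p = 0.084). Dnajc8, the most abundant Dnajc gene, had 44.4, 50.5, 45.1 and 35.3 FPKM across knockouts 1 to 4, against 45.2, 46.4, 39.4 and 51.8 FPKM across wild types 1 to 4, with overlap (limma adjusted p = 0.80).

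Small heat shock proteins gave 1 fall among 4 tested, while 8.94% of all genes tested were lower. Hspb8, which works with Bag3 to send misfolded proteins to autophagy, had 78.8, 75.6, 48.3 and 41.3 FPKM across knockouts 1 to 4, against 122, 88.8, 88.2 and 101.8 FPKM across wild types 1 to 4. Knockouts 3 and 4 were the lowest libraries, and knockout 1 came nearest to the wild types. The log2 change was -0.75 ± 0.22 (SE; limma adjusted p = 0.0463), with -1.21 within code 44 and -0.29 within codes 11 and 14, and the call was kept only without knockout 1 or without knockout 2 among the 8 fits that left out a library (highest adjusted p = 0.13). Bag3 itself had a log2 change of 0.45 ± 0.16 (limma adjusted p = 0.0986). Hspb1 (Hsp25) was the most abundant member, at 904, 1031, 996 and 1291 FPKM across knockouts 1 to 4, against 1444, 1439, 903 and 1106 FPKM across wild types 1 to 4. Of its stretches of 75 bases, 46.4% also occur in other genes. The genotypes overlapped (log2 change -0.20 ± 0.19, SE; limma adjusted p = 0.544). Hspb11, a protein of intraflagellar transport despite its name, had 11.3, 10.8, 11.1 and 9.64 FPKM across knockouts 1 to 4, against 6.06, 10.6, 4.83 and 10.2 FPKM across wild types 1 to 4. Wild types 1 and 3 were low and the others near the knockouts (0.45 ± 0.22, limma adjusted p = 0.224), and Hspb6 did not pass. Outside the naming rule, the lens crystallin gene Cryaa fell to 0.26 to 0.62 FPKM in the knockouts, against 2.37 to 3.28 FPKM in the wild types (-1.30 ± 0.15, limma adjusted p = 5.29e-04), while Cryab did not pass (0.05).

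The mitochondrial chaperonin pair has promoter windows that share 2 overlapping heat shock elements, shown above. Hspd1 (Hsp60) measured 82.7, 86.3, 91.4 and 95.3 FPKM across knockouts 1 to 4, against 68.9, 73.1, 81.96 and 81.2 FPKM across wild types 1 to 4. The groups did not overlap but met closely, and the change did not pass (0.22 ± 0.10, limma adjusted p = 0.198). Among the Hspd1 stretches of 75 bases, 29.57% also occur in other genes. Hspe1 (Hsp10) had 112.3, 116.5, 102.3 and 73.2 FPKM across knockouts 1 to 4, against 77.8, 88.7, 65.8 and 112.5 FPKM across wild types 1 to 4. Knockout 4 lay among the wild types and wild type 4 among the knockouts (0.23 ± 0.19, limma adjusted p = 0.484). Of 8 members that work in mitochondria, grouped after the values were seen, none passed (limma, adjusted p under 0.05). Over all genes tested 15.7% passed, and a group of 8 is too small for this to set it apart. The cytosolic chaperonin CCT and prefoldin list had 1 rise, Pfdn2 (0.61 ± 0.13, limma adjusted p = 0.0108), among 16 tested, and no fall. The shares over all genes tested were 6.72% higher and 8.94% lower.

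**Figure D4:**
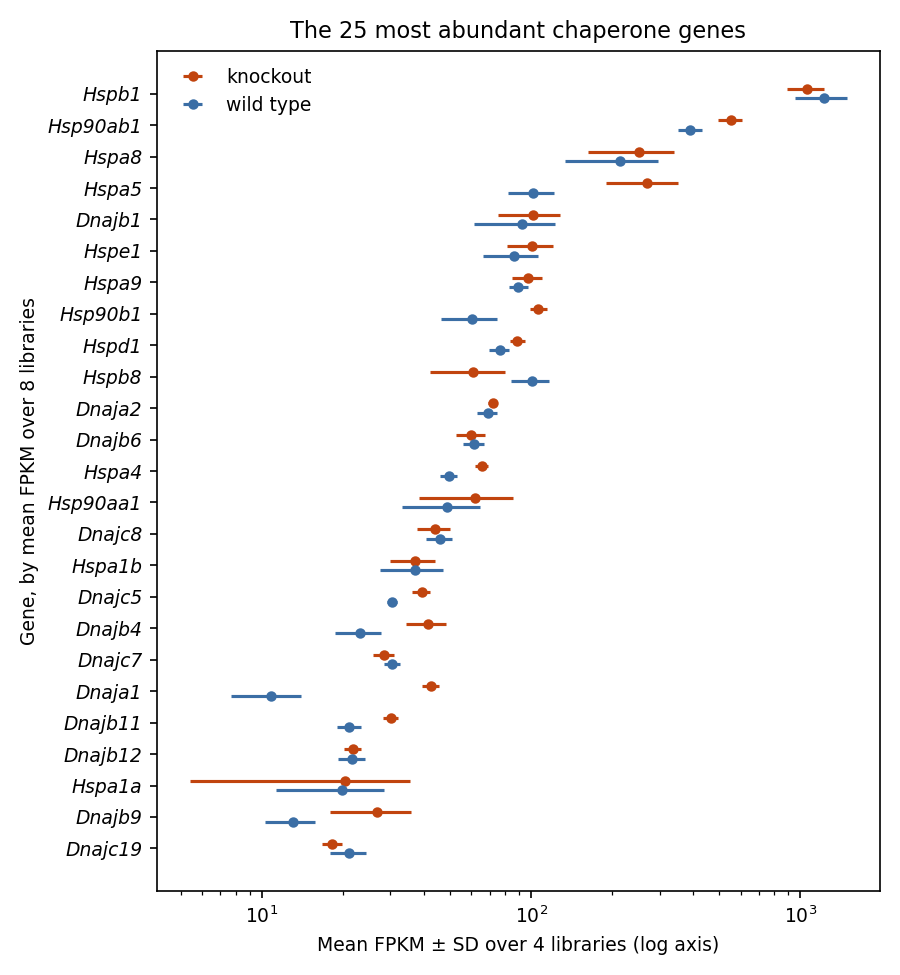
Mean FPKM with SD over 4 libraries (log axis) for the 25 most abundant of the 67 chaperone genes, ordered by the mean over all 8 libraries, with the knockouts in orange above the wild types in blue. Hspb1 and Hsp90ab1 lead in both genotypes, and the pairs furthest apart are those of Hspa5, Dnaja1, Dnajb9, Hsp90b1 and Dnajb4.

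By level per length, Hspb1 came first over all 8 libraries with a mean of 1139 FPKM, followed by Hsp90ab1 (470.4 FPKM), Hspa8 (233 FPKM), Hspa5 (186 FPKM) and Dnajb1 (96.9 FPKM). In the knockouts Hspa5 (270.2 FPKM) and Hspa8 (251 FPKM) lay within their SD of each other, while in the wild types Hspa8 (214 FPKM) was above Hspa5 (101.7 FPKM). The members together took 0.61%, 0.64%, 0.62% and 0.75% of the summed FPKM across knockouts 1 to 4, against 0.61%, 0.61%, 0.60% and 0.61% in wild types 1 to 4.

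Of 32 tested cochaperones of Hsp70 and Hsp90, 3 rose, 3 fell and 26 did not pass, with a median log2 change of 0.07. Over all genes tested 6.72% were higher and 8.94% lower, so these counts are near the share over all genes. Ahsa1, the activator of the Hsp90 ATPase (0.64 ± 0.14), the Hsp90-bound cyclophilin Ppid (0.60 ± 0.14) and the Hsp70 cofactor Bag5 (0.46 ± 0.12) rose. Bag1 (-0.58 ± 0.11), Bag4 (-0.60 ± 0.14) and the Hsp90-bound immunophilin Fkbp5 (-1.32 ± 0.29) fell (limma adjusted p of 0.0282 or below for each of the 6). Fkbp5, a gene known to respond to glucocorticoids, had 19.7 to 24.4 FPKM in the knockouts and 83.0, 70.9, 27.5 and 59.96 FPKM across wild types 1 to 4. Of 4 tested heat shock factors and their regulators, Hsbp1, a binding protein of trimeric Hsf1, and its relative Hsbp1l1 fell by 0.55 ± 0.13 and 0.73 ± 0.18 (log2, SE; limma adjusted p = 0.0238 and 0.024). Hsf1 had 6.39 to 8.27 FPKM in the knockouts and 3.74 to 7.91 FPKM in the wild types, and Hsf2 had log2 change 0.30, and neither passed (limma adjusted p = 0.222 and 0.436). Among 17 genes of the immediate early response to tissue handling, Ier3 rose (2.38 ± 0.39, limma adjusted p = 0.0031) and 16 did not pass, with a median log2 change of 0.44 over the list. The 17 genes summed to 5406, 3677, 3912 and 3896 FPKM across knockouts 1 to 4, against 4020, 4185, 1561 and 3467 FPKM across wild types 1 to 4, so wild type 3 stood apart as the lowest. Muscle markers summed to at most 3.73 FPKM in the knockouts and to 30.4 FPKM in wild type 3, against at most 1.09 FPKM in the other wild types. The part of handling or of muscle in the chaperone values was not tested. The log2 change of Dnajb1 was 0.18 in all 8 libraries and -0.09 without wild type 3. It was 0.03 without knockout 1 and 0.34 without wild type 2, and it passed in none of these fits.

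Levels were also compared between the title codes, and no member passed. With genotype in the model, a comparison added after the values were seen, code 44 against codes 11 and 14 gave log2 changes of -0.86 ± 0.13 for Hspa8, -0.79 ± 0.19 for Hsp90aa1 and 0.69 ± 0.16 for Hspa12a (SE; limma adjusted p = 0.0538, 0.0624 and 0.0593). None of the 11395 genes passed in that comparison (limma, adjusted p under 0.05), while 7 members (11.7%) and 2935 genes (25.8%) had an unadjusted p under 0.05. Whether the knockout effect itself differed between code 44 and the other codes was tested with an interaction term. No member and no gene passed (limma, adjusted p under 0.05), with 12 members (20%) and 1771 genes (15.5%) at an unadjusted p under 0.05. The member with the smallest unadjusted p was Hspb8, with a difference of effects of -0.91 (limma adjusted p = 0.203). Dnajb1 had an effect of -0.48 within code 44 and 0.84 within codes 11 and 14, a difference of -1.31 (limma adjusted p = 0.205). Fibroblast and melanocyte markers also ran unevenly. The 7 melanocyte markers summed to 93.3, 87.8, 79.8 and 17.9 FPKM across knockouts 1 to 4, against 14.3, 31.9, 47.1 and 84.3 FPKM across wild types 1 to 4, and the 8 fibroblast markers to 226, 333, 229.9 and 86.4 FPKM across knockouts 1 to 4, against 99.8, 143, 173 and 268 FPKM across wild types 1 to 4. Knockout 4 and wild types 1 and 2 were low in both, and in Hspa8 and Hsp90aa1. Knockout 3 was also low in Hspa8 (187 FPKM), but not in the melanocyte (79.8 FPKM) or fibroblast (229.9 FPKM) sums. The part of these cell types in the values of Hspa8 and Hsp90aa1 was not tested.

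**Figure D5:**
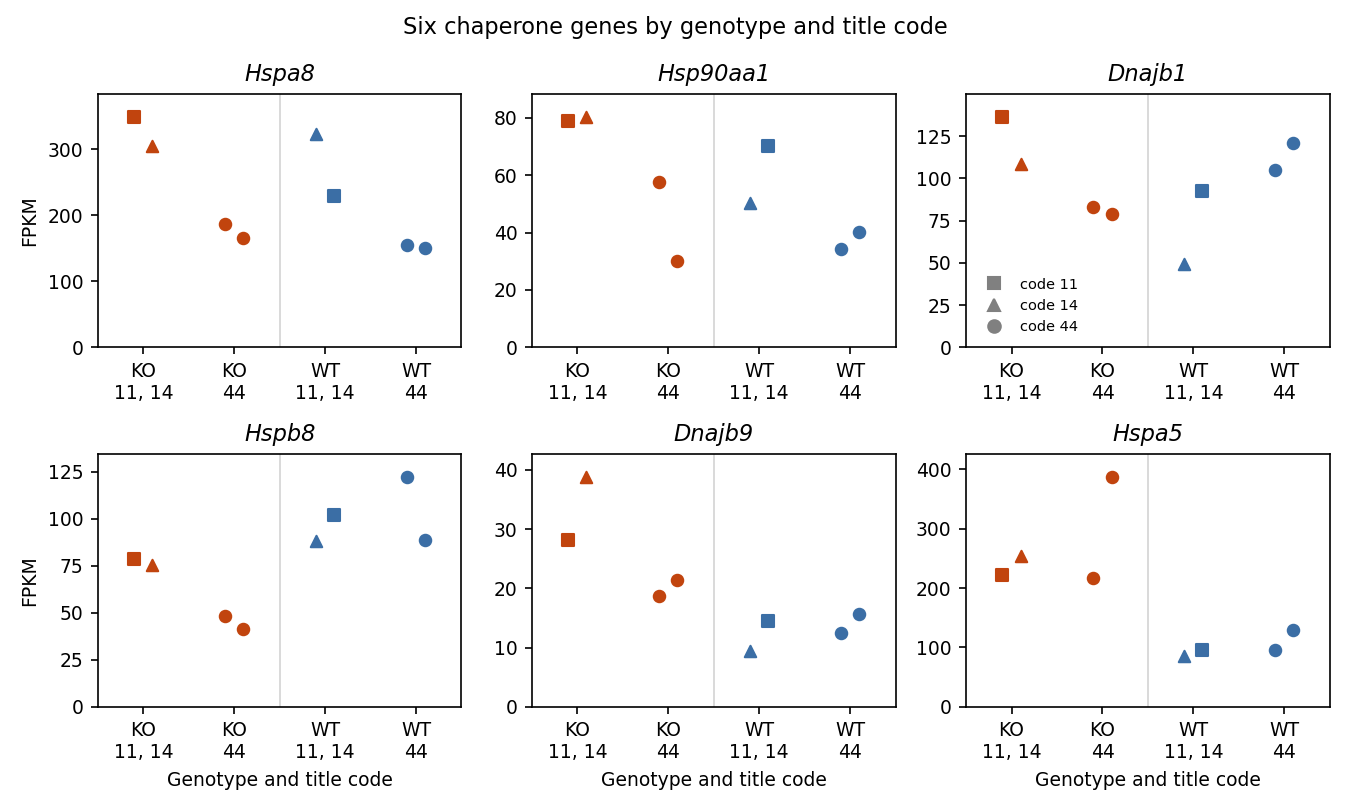
FPKM of 6 chaperone genes (y axis, from 0) in each library, by genotype (KO, knockout, orange; WT, wild type, blue) and title code (squares 11, triangles 14, circles 44). Hspa8 is lower in the 4 circles than in the other 4 libraries of both genotypes, the knockout circles lie above the wild types in Hspa5 and below them in Hspb8, and Dnajb1 runs in opposite directions within the codes.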

How the data were processed

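The authors deposited FPKM values for each symbol in every library, from ribosome-depleted stranded paired-end libraries per the labels' protocols. Reads were placed on mm10, according to the submitters' processing notes. The sources used here do not name the aligner, the counter, the annotation or the use of strand. Read depth is unknown, and no counting interval is given.

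A missing value was taken as 0 (2029 of 15995 genes have at least 1, among them 3 members). Krt1, Krt10, Flg2 and Rn45s, listed at 0 in some libraries and high in others, were left out. The 11395 genes with at least 1 FPKM in 4 of 8 libraries were compared on log2(FPKM + 1) with limma 3.58.1 (R 4.3.3). Its prior variance followed the mean, and genotype was the sole term. Changes on this scale are understated for low genes. Fits on fewer libraries used the same genes. The fit and the interaction term were run on simulated data. For the interaction, the simulated difference was larger than any among the members, so power at smaller differences was not tested. Promoter windows were searched in Python 3.11.15, and exon overlaps and shared stretches of 75 bases were read from GENCODE M21.

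Members, lists and rules were chosen with earlier results of these data known. Members were named when they passed, led their subfamily by mean FPKM or had one of its 2 smallest p-values. Others named with values, the grouping by compartment, the promoter stretches and the genes in the plot of title codes were chosen after the values were seen. Older symbols were used for list genes not found under the current name.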

Additional observations from a re-analysis of the deposited data

How the results depend on the processing

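Over the 18 alternatives, Dnaja1, Dnajb3, Dnajb4 and Hspa5 kept their calls in each, and none of the 14 called members changed sign in any. The number of members called was 14, and became 9 with log2 Xist as a covariate, 8 with title code 44 alone and 7 to 15 when leaving out a library. Xist stood at 1.84 FPKM in knockout 4 and 84.6 to 150.4 in the other knockouts, and at 118 in wild type 3 and at most 0.0223 in the other wild types. The 9 higher members became 5 with code 44 alone, 4 with codes 11 and 14 alone and 5 to 9 when leaving out a library. The 5 lower members became 3 without the filter on low values, with median scaling and with code 44 alone, 9 with array weights, 2 with the Xist covariate and 2 to 6 when leaving out a library. Over all genes the 1785 calls became 3669 with array weights, 1141 with the Xist covariate, 1181 with code 44 alone and 1094 to 2264 when leaving out a library, with the 2 lowest counts without wild type 1 (1094) and wild type 2 (1187). The lower members numbered 2 without wild type 1 and 3 without knockout 3, wild type 2 or wild type 4, and the higher members 5 without knockout 2 or wild type 1. The title code as a block gave 14 members and 2261 genes. The replicate numbers follow accession order and pair no samples, so they were not used as a block. The 4 luminal ER calls became 2 with code 44 alone and 2 with codes 11 and 14 alone, and were 3 or 4 in the other settings. Fits on 4 libraries have fewer samples; otherwise the cause was not tested.

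Signs turned for named members that had not passed. With code 44 alone Dnaja2 was at -0.047 and Dnajb1 at -0.48, and Dnajb1 ranged from -0.0904 (without wild type 3) to 0.336 when leaving out a library. Dnajc8 was at 0.028 with array weights and 0.065 with codes 11 and 14 alone, and ranged from -0.135 (without knockout 2) to 0.033 (without knockout 4) when leaving out a library. With the Xist covariate Hspa8 was at -0.24 and Hspb1 at 0.10. Median scaling moved the median log2 change of all genes by less than 0.1, and no called member changed sign under it.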
